A study of Homo sapiens with 6 samples.

Results

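The ATP-binding cassette (ABC) genes were described in the human acute myeloid leukaemia line SKM-1 after 48 h with celastrol or with its solvent DMSO. Celastrol is a triterpenoid from Tripterygium wilfordii, and its dose is not stated in the labels. Each treatment had 3 RNA-seq libraries, called celastrol 1 to 3 and DMSO 1 to 3. All come from 1 cell line, and nothing in the labels says that libraries came from separate cultures, so the spread behind each p-value may be a technical one. The members were the protein-coding genes of the deposited table whose symbol is ABC, a subfamily letter from A to G and a number. There were 45 of them among 58735 listed genes. Lineage markers were checked first: PTPRC, CD33, ITGAM, LYZ and SPI1 were the 5 of 11 myeloid markers at 1 FPKM or more. CEBPA, CD14, CSF1R, CSF3R and ANPEP lay under 1 FPKM in the mean over all libraries. The myeloid list summed to 57.4 to 63.3 FPKM in celastrol and 72.0 to 79.9 FPKM in DMSO. All 12 erythroid markers were at 1 FPKM or more. They summed to 681 to 749 FPKM in celastrol and 805 to 876 FPKM in DMSO. MPO, the granule peroxidase, was close to 0, at 0.023 FPKM in celastrol and 0.014 FPKM in DMSO. In every library the erythroid markers thus summed to more than the myeloid markers. What this marker profile means for the identity of the cells was not tested.

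ABC proteins bind and hydrolyse ATP through paired nucleotide-binding domains. Most couple this to the movement of a substrate across a membrane. Subfamily A moves mainly lipids, subfamily B includes the multidrug pump ABCB1 and the mitochondrial carriers, and subfamily C holds the multidrug resistance-associated proteins (MRPs) together with ion-channel relatives. Subfamily D serves the peroxisome and lysosome, and subfamily G holds the drug pump ABCG2 and sterol exporters. Members of E and F have no membrane-spanning part and act on ribosomes. In leukaemia the family is best known for the efflux of cytotoxic drugs.

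FPKM counts fragments relative to gene length and to a total for the library, so levels of different genes can be compared per length. The reads behind the deposited values came to 15231742 to 16231066 per celastrol library and 13549187 to 15410904 per DMSO library. Mitochondrially encoded genes took 1.37% to 1.85% of reads in celastrol and 5.44% to 5.65% in DMSO. The total by which the authors scaled was 1.04 to 1.05 times the listed reads in celastrol and 0.963 to 0.994 times in DMSO. Scaling to listed reads, or using TPM (length-normalised shares of a fixed total), shifts every gene. Over all tested genes the median log2 fold change was 0.02 as deposited, 0.12 scaled to listed reads and 0.26 as TPM. Calls gained or lost on these scales, given below, are to be read beside these medians. In bulk RNA, fewer cells of a type and less RNA per cell cannot be told apart.

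A total of 19 members had a mean of at least 1 FPKM and were tested with limma over all 12685 genes that passed this filter. At a Benjamini-Hochberg adjusted p under 0.05, 3 members were higher in celastrol (15.8% of those tested, against 15.3% of all genes), 5 were lower (26.3% against 14.2%) and 11 passed in neither direction. In either direction, 29.5% of all genes were called. The 3 celastrol libraries all lay above the 3 DMSO libraries for 5 members, against 25.3% of all genes, and all below for 7, against 22.0%. In either direction this held for 47.3% of all genes. The median log2 fold change of the 19 members was -0.01. As TPM the members split into 7 higher and 2 lower and all genes into 5266 higher and 813 lower, where the deposited FPKM gave 1947 and 1797. Scaled to listed reads, 5 members were higher and 3 lower, among 3024 and 1295 genes. Members called lower numbered 3 without celastrol 2, without celastrol 3 or without DMSO 3, and members called higher numbered 2 in each of these fits. All genes called higher then numbered 1128, 1228 and 1125, and all genes called lower 1129, 1284 and 987. By subfamily, 2 of 4 tested C genes were lower, A had 1 of 4 in each direction, and the 4 tested E and F genes passed in neither.

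**Figure D1:**
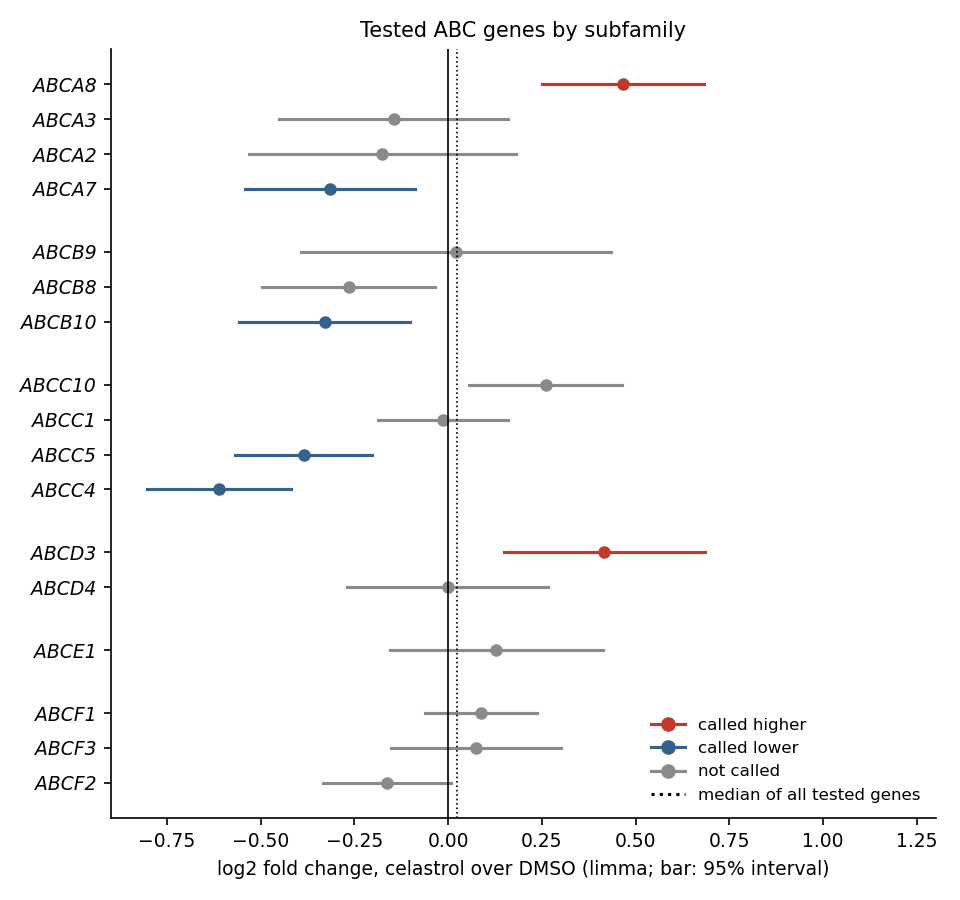
Log2 fold change of 17 tested ABC genes, celastrol over DMSO, from limma on log2(FPKM + 0.1), grouped by subfamily from A at the top to F at the bottom; points are estimates and bars 95% intervals. ABCC4 lies lowest, at -0.61, and ABCA8 highest, at 0.47; the dotted line marks the median over all tested genes, 0.02.

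The members covered a wide range of levels. ABCF1, a ribosome-associated protein, was the highest at 53.0 ± 1.01 FPKM in celastrol and 49.9 ± 2.08 FPKM in DMSO (SD, n = 3 each). It alone made up 21.6% to 23.1% of the summed FPKM of the family in celastrol and 19.6% to 20.2% in DMSO. Next came ABCC1, ABCB10, ABCA7 and ABCE1, whose means over all 6 libraries lay between 19.9 and 20.2 FPKM and did not differ beyond their spread. The lowest tested member was ABCB9, a lysosomal peptide transporter related to the TAP proteins, at 1.67 ± 0.156 FPKM in celastrol and 1.66 ± 0.273 FPKM in DMSO. Below it the levels dropped to ABCB6 at 0.446 FPKM in celastrol and 0.594 FPKM in DMSO. The 26 members under the filter comprised 8 of 12 A, 5 of 9 B, 7 of 11 C, 1 of 4 D and all 5 G genes. Summed over the family, FPKM was 238 ± 5.04 in celastrol and 250 ± 6.89 in DMSO.

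**Figure D2:**
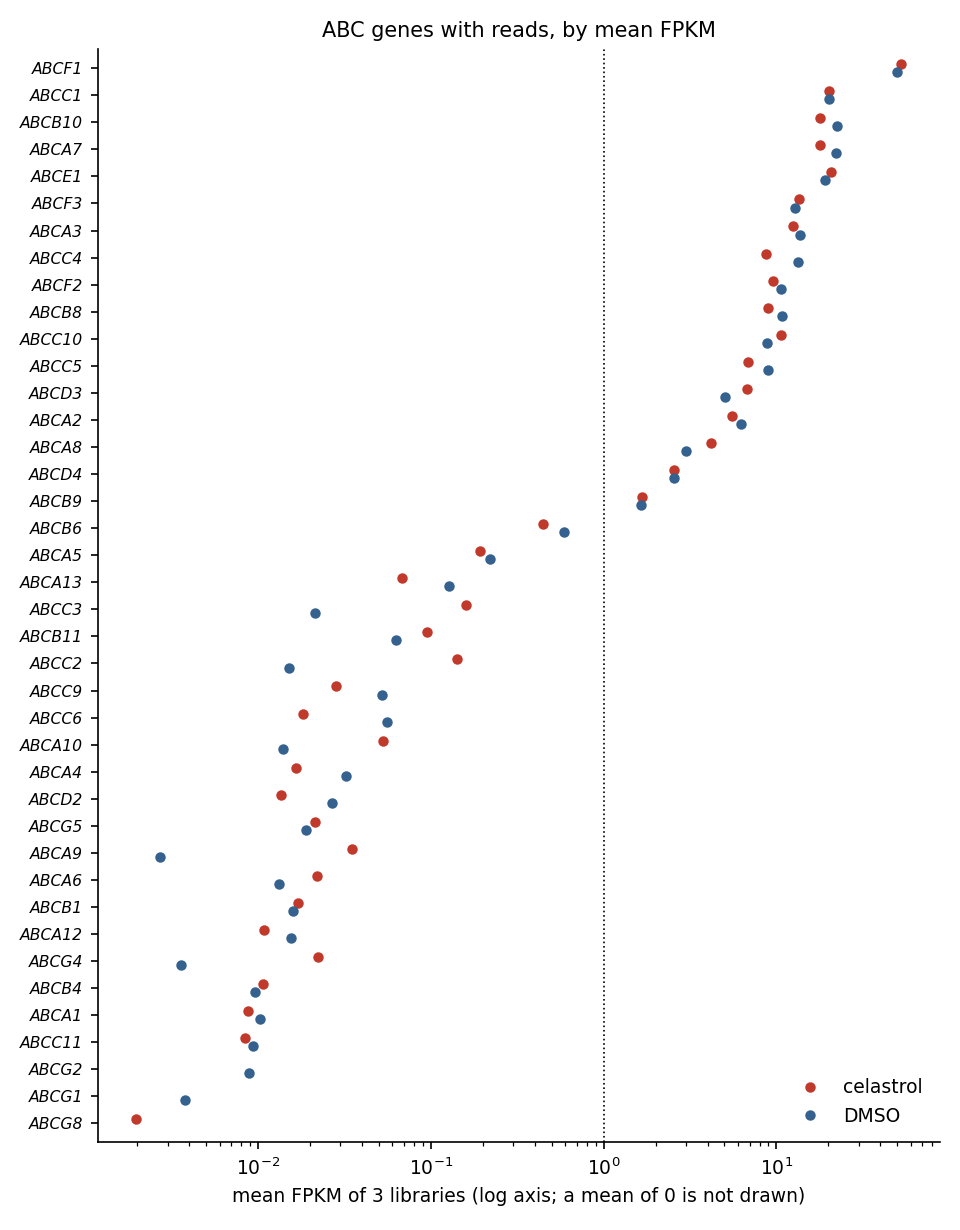
Mean FPKM of 40 ABC genes with reads, on a log axis, for celastrol (red) and DMSO (blue), ordered by the mean of all 6 libraries; the dotted line marks 1 FPKM. The tested genes lie right of the line, from ABCF1 at the top to ABCB9, and ABCC2 and ABCC3 are among the low genes whose celastrol mean lies far above the DMSO mean.

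The promoters of tested and untested members differed in base composition. RefSeq promoters (GRCh38.p14), covering 250 bases before and 50 after the start, were found for 35 of 45 members. For ABCB9, ABCG8 and ABCC9 the start used lay 6535, 7029 and 1103 bases from the deposited start of the gene. Their promoters may therefore not be those behind the measured reads. Where a gene had more than 1 entry, the entry nearest its deposited start was used. ABCB1 had 2 entries, and the promoter of the other was not described. Members with no entry included ABCA4, ABCA8, ABCB4, ABCB5, ABCC1, ABCC3, ABCC8 and ABCG1. The sequences below are the 250 bases before the start, 5′ to 3′ on the strand of the gene, with every CG dinucleotide in capitals. They show the most strongly lowered drug efflux gene (ABCC4), a lowered mitochondrial carrier (ABCB10), a scarce MRP with more reads in celastrol (ABCC2) and the classic multidrug pump, which had almost no reads (ABCB1).
ABCC4, chr13:95301452-95301701, minus strand: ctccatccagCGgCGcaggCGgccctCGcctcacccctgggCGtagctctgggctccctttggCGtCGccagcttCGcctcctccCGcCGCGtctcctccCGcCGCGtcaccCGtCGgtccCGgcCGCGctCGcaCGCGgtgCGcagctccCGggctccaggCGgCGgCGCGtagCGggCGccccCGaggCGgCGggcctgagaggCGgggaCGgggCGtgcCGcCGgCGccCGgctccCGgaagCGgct
ABCB10, chr1:229558708-229558957, minus strand: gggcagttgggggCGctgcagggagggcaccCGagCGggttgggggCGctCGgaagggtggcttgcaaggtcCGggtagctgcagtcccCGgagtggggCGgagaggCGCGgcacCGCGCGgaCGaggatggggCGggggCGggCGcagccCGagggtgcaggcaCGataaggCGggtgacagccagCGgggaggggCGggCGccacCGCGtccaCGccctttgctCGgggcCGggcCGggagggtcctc
ABCC2, chr10:99782390-99782639, plus strand: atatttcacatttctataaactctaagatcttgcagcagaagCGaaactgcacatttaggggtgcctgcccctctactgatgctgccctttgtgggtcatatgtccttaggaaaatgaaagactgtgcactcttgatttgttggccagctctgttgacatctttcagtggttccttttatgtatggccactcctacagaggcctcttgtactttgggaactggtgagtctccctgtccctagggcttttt
ABCB1, chr7:87713296-87713545, minus strand: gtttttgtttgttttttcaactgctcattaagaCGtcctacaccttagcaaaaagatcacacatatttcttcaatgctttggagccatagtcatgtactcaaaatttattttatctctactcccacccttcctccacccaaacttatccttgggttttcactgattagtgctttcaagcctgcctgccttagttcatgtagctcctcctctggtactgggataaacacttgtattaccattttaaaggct
The ABCC4 stretch held 42 CG dinucleotides and the ABCB10 stretch 29, against 1 each in the ABCC2 stretch and the ABCB1 stretch shown. By the gene positions of the deposited table, the last 24 bases of the ABCC4 stretch and the last 28 of the ABCB1 stretch lie inside the gene.

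Over the full 300 bases, the median ratio of observed to expected CpG was 0.926 in the 15 tested members with an entry, 0.266 in the 20 untested members and 0.579 in all 35116 promoters of the table. Median GC content was 66.7% in the tested members, 49.2% in the untested members and 58.7% in all promoters. The ranges overlapped: ABCA2 and ABCB8 were tested genes with ratios of 0.519 and 0.538, and ABCC9 and ABCA5 were untested genes with ratios of 0.976 and 1.03. The comparison is a description with no test.

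**Figure D3:**
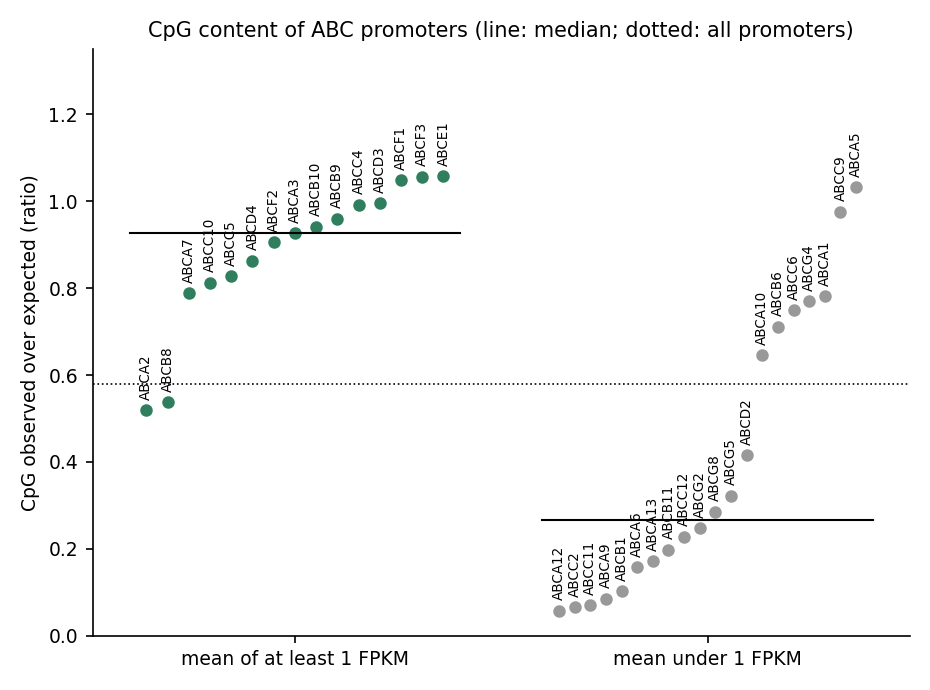
Ratio of observed to expected CpG in the 300-base RefSeq promoter of 35 ABC genes, with the 15 tested genes on the left and the 20 untested genes on the right; solid lines are medians (0.926 and 0.266) and the dotted line is the median of all promoters (0.579). Most tested members lie above the dotted line and most untested members below it, with exceptions on both sides.

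Motifs were searched on both strands of the same promoters. The antioxidant response element core, TGACNNNGC, was found in 6 of 15 tested members, 2 of 20 untested members and 13.3% of all promoters. In ABCC4, a gene lower in celastrol, it reads GCCGCGTCA on the gene's strand, 149 bases before the start. The other tested members with this core, ABCA2, ABCA3, ABCC10, ABCD4 and ABCF1, were not called. The E-box CACGTG was found in 3 tested and 3 untested members and in 7.26% of all promoters. The promoters of ABCB6, ABCC10 and ABCF1 held both, and in ABCB6 the letters overlapped. The GATA site AGATAA was found in 0 tested members, 4 untested members and 10.3% of all promoters; those of ABCG5 and ABCG8 are the same bases. A heat shock element was found in no member and in 0.49% of all promoters. A match is a run of letters and not a bound site.

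Drug efflux was followed through 10 pumps, of which 4 passed the filter, all of subfamily C. Of these, 0 were higher and 2 were lower in celastrol, against 15.3% higher and 14.2% lower of all tested genes; 4 genes are too few to set against those shares. ABCC4 (MRP4; 13:95019829-95301475, GRCh38) exports nucleotide analogues and cyclic nucleotides. It had 9.57, 8.24 and 8.28 FPKM in celastrol 1 to 3, against 12.9, 13.6 and 13.4 FPKM in DMSO 1 to 3. Every celastrol library lay below every DMSO library, and the celastrol mean was 1.53-fold lower (log2 fold change -0.61 ± 0.08 SE, limma adjusted p = 0.00205). ABCC5 (MRP5; 3:183919934-184018015), another nucleotide exporter, had 6.61, 7.13 and 6.75 FPKM in celastrol, against 9.58, 8.38 and 8.93 FPKM in DMSO. The groups again did not overlap, with celastrol 1.31-fold lower (log2 fold change -0.39 ± 0.08 SE, limma adjusted p = 0.0104). As TPM the ABCC5 call was lost (adjusted p = 0.164).

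ABCC1 (MRP1), which exports glutathione conjugates and anthracyclines, had the highest level among the pumps. It had 19.95, 20.05 and 20.13 FPKM in celastrol, against 21.6, 18.6 and 20.6 FPKM in DMSO. The groups overlapped, and the log2 fold change was -0.01 with a 95% interval of -0.19 to 0.16 (limma adjusted p = 0.900). As TPM it became 0.23 with an adjusted p of 0.0296, at the median of all genes on that scale. ABCC10 (MRP7), a pump of taxanes and Vinca alkaloids, had 11.0, 10.8 and 10.0 FPKM in celastrol, against 9.54, 8.01 and 9.10 FPKM in DMSO. All celastrol libraries were above all DMSO libraries, yet the log2 fold change of 0.26 ± 0.09 SE missed the threshold (limma adjusted p = 0.0599). It passed in 7 of 17 alternatives, among them TPM (adjusted p = 0.00309), listed reads (0.0143) and the fit without DMSO 1 (0.0406).

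Ratios of 2 members within a library do not depend on its scaling. ABCC4 over ABCC1 was 0.480, 0.411 and 0.411 in celastrol, against 0.596, 0.732 and 0.650 in DMSO. ABCC10 over ABCC5 averaged 1.56 ± 0.0976 in celastrol and 0.990 ± 0.0320 in DMSO (SD, n = 3 each), so ABCC10 was the higher of the pair in celastrol and about level with ABCC5 in DMSO. These pairs were chosen after the values were seen and carry no test.

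The other 6 drug efflux members lay under the filter. ABCB1 (P-glycoprotein, MDR1) had 0, 1 and 4 reads in celastrol and 0, 1 and 3 reads in DMSO. ABCG2 (breast cancer resistance protein) had 0 reads in each celastrol library and 0, 0 and 2 reads in DMSO. A count of 0 allows up to 3 reads, which for ABCG2 is 0.0354 to 0.0442 FPKM depending on the library, so no difference was detectable at this depth. Both pumps were close to silent in both groups. ABCC11 had 1, 1 and 1 reads in celastrol and 1, 0 and 2 in DMSO. ABCC6 had 0, 0 and 7 reads in celastrol and 9, 5 and 4 in DMSO, and its reads can be divided with the near-identical copies ABCC6P1 and ABCC6P2.

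ABCC2 and ABCC3 (MRP2 and MRP3), exporters of organic anion and glucuronide conjugates best known from liver, were scarce members with more reads in celastrol. ABCC2 had 10, 19 and 26 reads in celastrol, against 2, 2 and 1 in DMSO. ABCC3 had 15, 26 and 35 reads in celastrol, against 3, 1 and 5 in DMSO. For each gene every celastrol library held more reads than any DMSO library. Among the other scarce members, ABCA10 also lay above DMSO in the FPKM of every celastrol library. ABCA13, ABCB6 and ABCC9 lay below DMSO in every celastrol library. The share of such genes among all genes under the filter was not worked out. The rate per listed read was 10.2-fold higher for ABCC2 (exact 95% interval 4.13 to 32.8) and 7.85-fold higher for ABCC3 (3.93 to 17.8); these intervals cover counting error only, over the summed reads. ABCA9 had a larger ratio, 14.9, but on 1 DMSO read in all. Without the filter, limma on log2(FPKM + 0.1) gave adjusted p = 0.0690 for ABCC2 and 0.0714 for ABCC3, where 8.33% of 31741 genes were called. Levels stayed low in absolute terms, at 0.141 and 0.159 FPKM in celastrol and 0.0151 and 0.0215 FPKM in DMSO for ABCC2 and ABCC3.

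**Figure D4:**
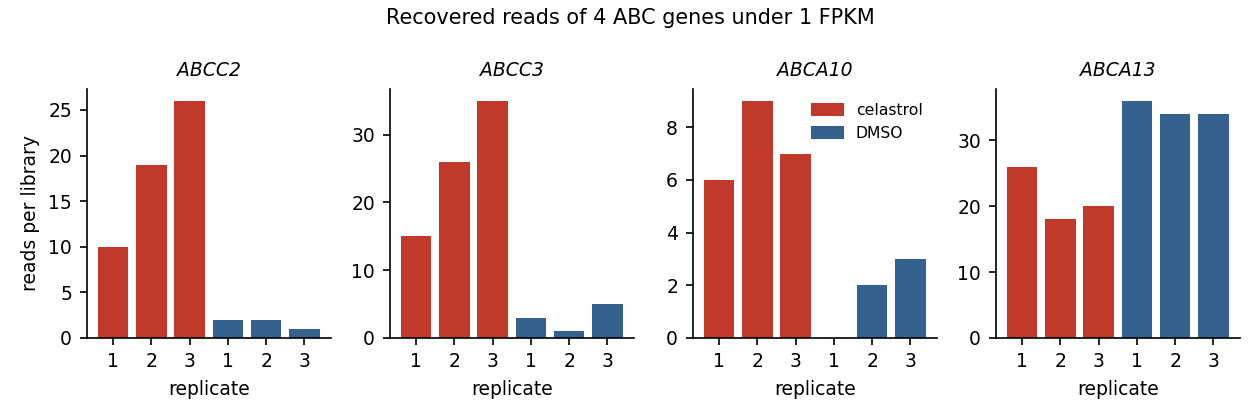
Reads per library of 4 ABC genes under 1 FPKM, with celastrol replicates 1 to 3 (red) left of DMSO replicates 1 to 3 (blue) in each panel; each bar is 1 library. ABCC2, ABCC3 and ABCA10 have more reads in every celastrol library than in any DMSO library, and ABCA13 has fewer.

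Heme and iron transport was followed next. ABCC5, described above, belongs here too because it exports heme in the worm Caenorhabditis elegans. It was called lower, as was the mitochondrial carrier ABCB10.

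ABCB10 (1:229516582-229558695), a mitochondrial carrier that in mice takes part in heme synthesis of red cell precursors, had 19.4, 17.2 and 16.8 FPKM in celastrol, against 20.5, 25.2 and 21.7 FPKM in DMSO. The groups were close, since celastrol 1 lay just below DMSO 1. Its log2 fold change was -0.33 ± 0.10 SE (limma adjusted p = 0.0400). The call was lost in 11 of 17 alternatives, among them the fits without DMSO 2 (adjusted p = 0.0723), DMSO 3 (0.0918), celastrol 2 (0.125) and celastrol 3 (0.116), listed reads (0.121) and TPM (0.524). Its value is also uncertain because 3 processed copies on chromosome 15 carried reads. ABCB10P4 averaged 15.7 ± 1.58 FPKM in celastrol and 15.8 ± 0.482 FPKM in DMSO, ABCB10P3 6.69 and 7.13 FPKM, and ABCB10P1 2.68 and 3.06 FPKM. None of the 3 copies was called, and reads could be divided between them and the gene.

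ABCB8, a mitochondrial inner-membrane protein linked in mice to iron export, had 9.16, 8.75 and 8.88 FPKM in celastrol, against 12.4, 9.64 and 10.4 FPKM in DMSO. DMSO 1 was the highest library and the groups did not overlap, but the log2 fold change of -0.27 ± 0.10 SE missed the threshold (limma adjusted p = 0.0822; 0.0343 without DMSO 2). An antisense gene, AC010973.1, overlaps it at 1.96 FPKM in celastrol and 1.76 FPKM in DMSO, and without strand their reads cannot be told apart. ABCB6, a porphyrin transporter that carries the Langereis blood group, lay under the filter with 0.436, 0.414 and 0.489 FPKM in celastrol, against 0.757, 0.525 and 0.501 FPKM in DMSO. ABCG2, which also exports porphyrins, was given above.

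Erythroid markers moved in the same samples. All 12 listed erythroid genes were at 1 FPKM or more, 8 of them (66.7%, against 14.2% of all genes) were lower in celastrol and 0 higher, and their summed FPKM was 681 to 749 in celastrol and 805 to 876 in DMSO. GATA1, the red cell transcription factor, had 110 ± 14.9 FPKM in celastrol and 158 ± 3.72 FPKM in DMSO (SD, n = 3 each; limma adjusted p = 0.00754). Myeloid markers summed to 57.4 to 63.3 FPKM in celastrol and 72.0 to 79.9 FPKM in DMSO, with 2 of 5 tested lower and 0 higher. The part of these markers in the ABC results was not tested. Of 6 lymphoid markers, 3 were at 1 FPKM or more, 2 of them called higher and 0 lower, MS4A1 was at 0 and CD3E close to 0, and the sums were 15.4 to 15.9 FPKM in celastrol and 8.42 to 10.4 FPKM in DMSO. Of 6 epithelial and stromal markers, 3 were at 1 FPKM or more, COL1A2 and CDH1 were at or close to 0, and the sums were 186 to 222 FPKM in celastrol and 149 to 163 FPKM in DMSO. Within that list KRT8 and KRT18 were called higher and EPCAM lower, at 15.6 FPKM in celastrol and 32.0 FPKM in DMSO (limma adjusted p = 0.000163).

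**Figure D5:**
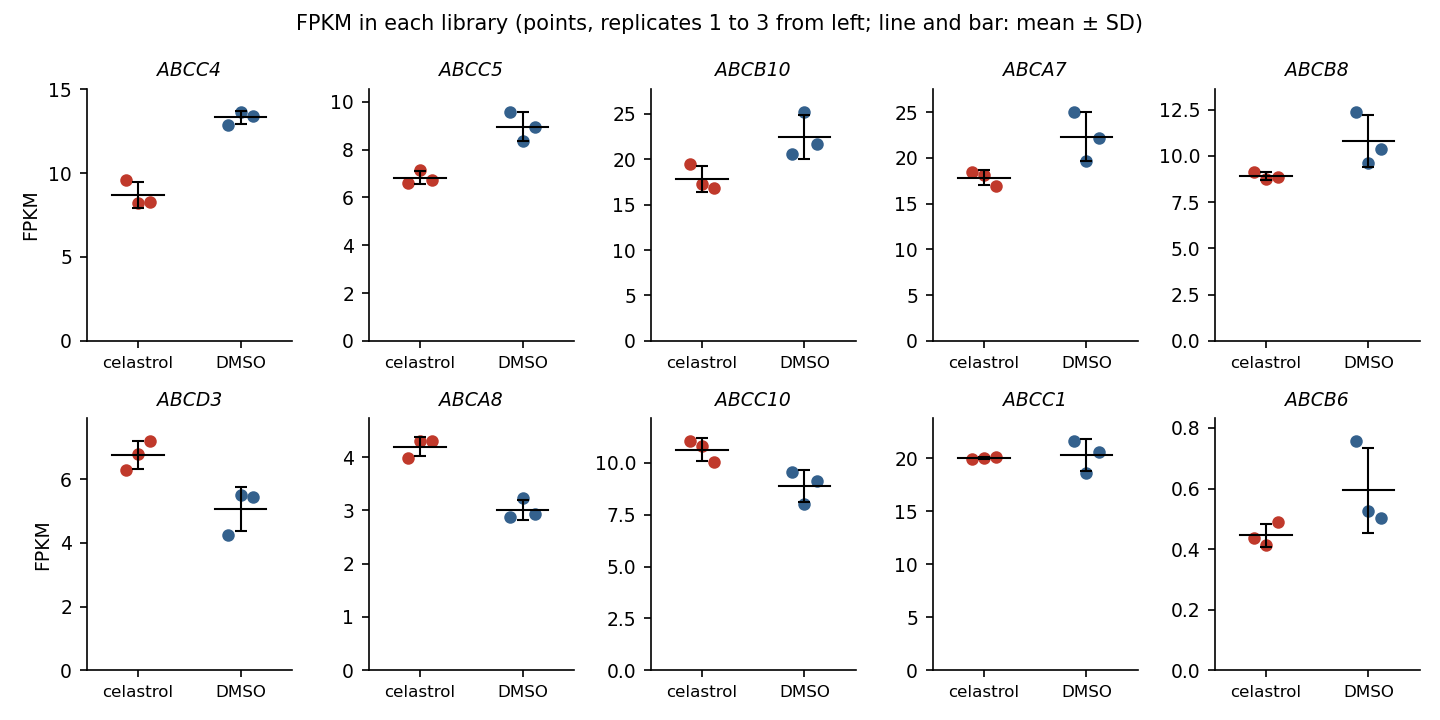
FPKM of 10 ABC genes in each library, with celastrol (red) left of DMSO (blue); points are replicates 1 to 3, the line is the mean and the bar 1 SD, and each panel has its own axis from 0. The groups do not overlap in any panel except that of ABCC1, and the gap is narrow for ABCB10, ABCA7, ABCB8, ABCC10 and ABCB6.

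Of 17 tested genes for heme transport and iron-sulfur assembly, which work with the mitochondrial carriers, 3 were higher and 4 lower (17.6% and 23.5%), with a median log2 fold change of 0.11. Of all tested genes 15.3% were higher and 14.2% lower, so the list lay near the background. FECH, which inserts iron into heme, had 17.6 ± 1.15 FPKM in celastrol and 25.6 ± 0.520 FPKM in DMSO (log2 fold change -0.54). SLC25A37 (mitoferrin 1), the mitochondrial iron importer, had 31.9 ± 0.623 FPKM in celastrol and 43.6 ± 2.58 FPKM in DMSO (-0.44), and MMS19, a carrier of iron-sulfur clusters to DNA enzymes, had 12.6 ± 1.11 FPKM in celastrol and 18.9 ± 1.20 FPKM in DMSO (-0.58). All 3 were lower beyond their spread, with limma adjusted p-values of 0.00194 for FECH, 0.00370 for SLC25A37 and 0.00323 for MMS19. ISCU, the scaffold on which clusters are built, was higher, with 18.1 ± 2.22 FPKM in celastrol and 13.0 ± 0.650 FPKM in DMSO (0.48, limma adjusted p = 0.0113).

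Subfamily D serves mainly the import of acyl groups into peroxisomes. ABCD3 (PMP70; 1:94418455-94518666), a peroxisomal importer of branched-chain acyl groups and bile acid precursors, had 6.30, 6.80 and 7.20 FPKM in celastrol, against 4.27, 5.50 and 5.44 FPKM in DMSO. Celastrol lay above DMSO throughout, 1.33-fold in the means (log2 fold change 0.42 ± 0.12 SE, limma adjusted p = 0.0308). That call was lost without filter (0.0891) and without DMSO 3 (0.0556), celastrol 2 (0.0889) or celastrol 3 (0.0967).

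ABCD4, which helps move cobalamin out of lysosomes, had 2.55 ± 0.227 FPKM in celastrol and 2.55 ± 0.0995 FPKM in DMSO, with a log2 fold change of 0.00 (95% interval -0.27 to 0.27). ABCD2 was under the filter, at a mean of 0.0202 FPKM over the 6 libraries.

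Of 10 other peroxisomal genes tested, 1 was higher and 2 lower, near the 15.3% and 14.2% of all genes, with a median log2 fold change of 0.02. PEX19, the chaperone that delivers membrane proteins to peroxisomes, had 15.7 ± 0.660 FPKM in celastrol and 11.8 ± 0.648 FPKM in DMSO (log2 fold change 0.41). CAT (catalase) had 22.8 ± 0.573 FPKM in celastrol and 31.7 ± 1.30 FPKM in DMSO (-0.47), and HSD17B4, an enzyme of peroxisomal beta-oxidation, had 7.77 ± 0.383 FPKM in celastrol and 10.5 ± 0.348 FPKM in DMSO (-0.43). All 3 passed limma's test, with adjusted p-values of 0.00656 for PEX19, 0.00231 for CAT and 0.00501 for HSD17B4; as TPM the call of HSD17B4 was lost (0.0801).

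Among the lipid and sterol members, 4 of 16 were tested. ABCA8 (17:68867292-68955392), linked to cholesterol efflux and phospholipid transport, had 3.98, 4.30 and 4.30 FPKM in celastrol, against 2.87, 3.23 and 2.93 FPKM in DMSO. Every celastrol library was above every DMSO library, 1.39-fold in the means (log2 fold change 0.47 ± 0.09 SE, limma adjusted p = 0.00947). ABCA7 (19:1040101-1065572), a phospholipid transporter and a risk gene for Alzheimer disease, had 18.4, 18.1 and 16.9 FPKM in celastrol, against 25.02, 19.7 and 22.2 FPKM in DMSO. Celastrol was lower, by 1.25-fold in the means (log2 fold change -0.32 ± 0.10 SE, limma adjusted p = 0.0448). The ABCA7 call was lost in 12 of 17 alternatives, with adjusted p-values of 0.0809, 0.105 and 0.127 without celastrol 1, 2 or 3, and of 0.0816 and 0.121 without DMSO 1 or DMSO 3. It was also lost with listed reads (0.0998) and TPM (0.530).

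ABCA3, the surfactant lipid transporter of lung, and ABCA2, an endolysosomal sterol transporter, had log2 fold changes of -0.15 (95% interval -0.45 to 0.16) and -0.18 (-0.53 to 0.18) and overlapped between groups. ABCA1 and ABCG1, the main cholesterol exporters of macrophages, were close to 0, with 0 to 4 reads per library for ABCA1 and 1 read in all for ABCG1. ABCA8, ABCA9, ABCA6, ABCA10 and ABCA5 lie side by side on chromosome 17, and of these 5 neighbours only ABCA8 reached 1 FPKM. The next, ABCA9, starts 19.1 kb away and had 1, 4 and 11 reads in celastrol and 0, 1 and 0 in DMSO. ABCA10 had 6, 9 and 7 reads in celastrol and 0, 2 and 3 in DMSO (limma adjusted p = 0.235 without the filter), and it overlaps ABCA5 on the same strand. ABCA5 had 41, 41 and 42 reads in celastrol and 42, 34 and 48 in DMSO. ABCA13, on chromosome 7, had 26, 18 and 20 reads in celastrol and 36, 34 and 34 in DMSO (limma adjusted p = 0.386 without the filter).

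Of 12 genes of sterol efflux and its control, all tested, 3 were higher and 1 lower, which is near the 15.3% and 14.2% of all genes. NR1H3 (LXR alpha), the oxysterol receptor that induces ABCA1 and ABCG1 in macrophages, had 4.35, 4.36 and 5.13 FPKM in celastrol, against 2.08, 1.69 and 2.17 FPKM in DMSO. That is 2.33-fold higher in the means (log2 fold change 1.18 ± 0.13 SE, limma adjusted p = 0.000893), while ABCA1 and ABCG1 stayed near 0 reads in both groups. SREBF2, the activator of cholesterol synthesis, had 38.5 ± 4.99 FPKM in celastrol and 55.5 ± 5.73 FPKM in DMSO (-0.53, limma adjusted p = 0.0133; 0.0527 without DMSO 3 and 0.0736 as TPM). The lysosomal cholesterol exporters NPC1 and NPC2 were higher by 0.23 and 0.37 on the log2 scale (limma adjusted p = 0.0405 and 0.0401). Leaving out any library other than DMSO 1 ended the NPC1 call (0.0599 to 0.143), and any other than celastrol 1 ended the NPC2 call (0.0744 to 0.0893).

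The ribosome-associated members were expressed throughout, and none was called on the deposited FPKM. ABCE1, which splits ribosomes after termination, had 20.7 ± 1.59 FPKM in celastrol and 19.1 ± 3.09 FPKM in DMSO (log2 fold change 0.13, 95% interval -0.16 to 0.41). OTUD4 (6.62 FPKM in celastrol and 6.17 FPKM in DMSO) and ANAPC10 (1.34 and 1.20 FPKM) overlap ABCE1 on the opposite strand. Without strand, reads where they overlap cannot be told apart. ABCF1, a partner of initiation factor eIF2, had a log2 fold change of 0.09 (-0.06 to 0.24) with its libraries not overlapping. ABCF2 had -0.16 (-0.33 to 0.01) and ABCF3, the human relative of yeast GCN20, had 0.08 (-0.15 to 0.30). As TPM, ABCF1 and ABCF3 were called higher, at 0.33 and 0.32, against a median of 0.26 for all genes on that scale. ABCF1 was also called higher scaled to listed reads (adjusted p = 0.0408) and with limma-voom on recovered reads (0.0475). Of 10 tested genes for ribosome recycling and the GCN1 pathway, 0 were called in either direction by limma, with log2 fold changes from -0.11 to 0.25.

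Of 14 tested regulators, anchors and conjugating enzymes around the drug pumps, 3 were higher and 2 lower, near the 15.3% and 14.2% of all genes. NFE2L2 (NRF2), the transcription factor that binds antioxidant response elements and is known to raise MRP genes, had 14.3 ± 0.921 FPKM in celastrol and 19.6 ± 2.39 FPKM in DMSO (log2 fold change -0.44, limma adjusted p = 0.0166). Its call was lost without celastrol 2 (0.0657) or DMSO 3 (0.0598) and as TPM (0.166). FOXO3, a stress-responsive forkhead factor, had 6.16 ± 0.448 FPKM in celastrol and 9.29 ± 0.164 FPKM in DMSO (-0.59, limma adjusted p = 0.00203). The membrane-bound glutathione transferases MGST1 and MGST2 were higher, with 4.81 ± 0.806 and 9.96 ± 0.456 FPKM in celastrol, against 3.33 ± 0.463 and 7.74 ± 0.749 FPKM in DMSO. Their adjusted p-values from limma were 0.0359 and 0.0213. The MGST1 call was lost without any 1 library other than DMSO 2 (0.0506 to 0.101), and the MGST2 call without celastrol 2, celastrol 3 or DMSO 3 (0.0522 to 0.0710).

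A few ABC proteins carry other symbols. TAP1 and TAP2 form the peptide transporter that loads MHC class I. TAP1 had 3.57, 4.02 and 3.74 FPKM in celastrol, against 3.05, 2.30 and 3.00 FPKM in DMSO, and was higher (log2 fold change 0.44 ± 0.13 SE, limma adjusted p = 0.0396). Its call was lost in 7 of 16 alternatives, including the fit without any 1 library other than DMSO 1 (0.0593 to 0.132). TAP2 had 4.13 ± 0.324 FPKM in celastrol and 3.59 ± 0.463 FPKM in DMSO (0.20 ± 0.12 SE, adjusted p = 0.234). CFTR, the chloride channel of subfamily C, had 0 reads in every library.

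ABCC4 and ABCA8 passed the threshold in the same direction in every alternative that tested them (17 for ABCC4 and 16 for ABCA8).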

How the data were processed

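The deposited table gives FPKM per gene for 3 celastrol and 3 DMSO libraries of SKM-1 RNA at 48 h, grouped and numbered by their titles. Per the submitters' processing notes, the authors used HISAT2 2.0.5 and featureCounts 1.5.0-p3 with GRCh38; strand setting and library selection are not stated. Dividing the product of FPKM and gene length by its smallest nonzero value in the same library gave whole reads, to a tolerance of 0.001 read, for 100% of nonzero values, and these recovered reads were used where reads are named; depth limits precision for members with few reads.

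Tests used limma 3.58.1 in R 4.3.3: limma-trend on log2(FPKM + 0.1), which understates fold changes of low genes, for genes with a mean FPKM of at least 1, two-sided, treatment as the single term, Benjamini-Hochberg adjusted over all tested genes, threshold 0.05. Fold changes between means are of FPKM. SD is over the 3 libraries of a group. SE is limma's standard error of the log2 fold change, with a variance shared by both groups and drawn towards a trend over all tested genes. The limma-trend step was run on simulated reads with known changes. That simulation was given no difference in scaling or mitochondrial share between treatments, so it does not cover the choice of scaling. Pairs of libraries within a treatment differed by a chi-square of 4.01 to 13.4 per gene, so none repeats another.

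The members and gene lists were chosen with earlier results of these data known. Some members are not reported here; counts over the family include them. Named were the other tested members, the drug efflux and heme or iron members, the highest and some other untested members, up to 4 called genes by size per partner list, and TAP1, TAP2 and CFTR; GATA1, ABCC9, ABCA9, ABCA10, ABCA13, ABCA5, ABCD2, ABCA1 and ABCG1 were added after their values were seen.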

Additional observations from a re-analysis of the deposited data

How the results depend on the processing

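Alternatives were pseudocounts of 0.01 and 1, no filter, a minimum mean FPKM of 5, TPM, quantile normalization, listed reads, nuclear reads, limma-voom on recovered reads, a replicate block, each library left out, and limma-voom on genes with at least 10 reads, which was added after seeing the data and admits scarce members through the group where they are high. ABC genes called lower numbered 3 with no filter, listed reads, nuclear reads, limma-voom and the block, 2 as TPM, and 3 to 5 with a library left out. ABC genes called higher numbered 7 as TPM and with limma-voom at 10 reads, 5 with listed reads and limma-voom, and 2 to 4 with a library left out. The members' median log2 fold change was 0.23 as TPM, 0.083 with listed reads and with both limma-voom fits, -0.15 at a minimum of 5, and -0.078 to 0.013 with a library left out. All genes called higher numbered 5266 as TPM, 3024 with listed reads, 3650 with limma-voom and 3899 at 10 reads. With a library left out they numbered 1125 to 1937. All genes called lower numbered 1331 with no filter, 1295 with listed reads, 1583 with nuclear reads, 1465 with limma-voom and 813 as TPM. They numbered 1617 with the block and 987 to 1767 with a library left out, against 1797 with all libraries on the deposited FPKM. The fit with no filter covered 31741 genes, against 12685 with the filter. Signs turned only for members that were not called with all libraries on the deposited FPKM. As TPM they turned for ABCC1 (0.23), ABCA3 (0.094), ABCF2 (0.077), ABCA2 (0.062) and ABCD4 (0.24). The median of all tested genes was 0.26 as TPM and 0.02 as deposited. For ABCC1 and ABCD4 they also turned with listed reads (0.083 and 0.093), nuclear reads (0.024 and 0.036) and both limma-voom fits (0.083 and 0.098). With a library left out, they turned for ABCC1 (-0.074 to 0.032), ABCD4 (-0.066 to 0.057) and ABCB9 (-0.078 to 0.14). The cause was not tested. Same-numbered libraries had deviation correlations of -0.016, -0.033 and 0.034, and other-numbered ones across treatments -0.028 to 0.041. No pairing by number was thus seen across genes. The labels do not say whether same-numbered libraries share a culture or day, and these correlations cannot exclude it. With the block, 1776 genes were higher and 1617 lower, and ABCA7 and ABCB10 were not called. Members under about 10 reads per library are limited by depth.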
